A study of Homo sapiens with 6 samples.

Results

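Everolimus-resistant MDA-MB-231 cells were compared with the parental cells from which they were derived, across all genes. MDA-MB-231 is an established human triple-negative breast cancer line of mesenchymal character, and everolimus is a rapamycin analog. The comparison takes 4 of the 6 libraries of the series: 2 of parental cells, which had no drug (one label field gives DMSO), and 2 of a derivative held for several months in 20 µM everolimus until resistant. All cells grew in DMEM with serum and antibiotics. The derivative is 1 line, so resistance, the drug in the medium and drift of that line in culture cannot be told apart. The labels do not say that the 2 libraries of a group came from separate cultures, so p-values measure only the spread between these libraries, which may be technical. RNA selected for poly(A) tails was sequenced with a strand-keeping kit, and 21223 of 69292 gene IDs had enough counts to test. The other 2 libraries, from cells resistant to 30 µM ridaforolimus, entered the gene filter, the scaling and the estimate of the spread. They were not compared.

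Levels are in CPM, a gene's share of its library's counts after edgeR's TMM scaling, and are compared between libraries, not between genes. Values are given for parental libraries 1 and 2, then everolimus libraries 1 and 2. A log2 fold change is everolimus over parental, given ± its standard error from edgeR's quasi-likelihood test. A gene passed where the Benjamini-Hochberg adjusted p over the 21223 genes was under 0.05.

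Rapamycin analogs bind the immunophilin FKBP12, and the complex inhibits mTORC1, the kinase complex that couples amino acids and growth factors to protein, lipid and nucleotide synthesis. mTORC1 raises translation of ATF4, the transcription factor of amino-acid supply, and promotes processing of the SREBP factors that drive sterol and fatty acid genes. It phosphorylates S6 kinases and the 4E-BP translation repressors, and feedback from S6 kinase dampens IRS adaptors and PI3K. In the unfolded protein response, ERN1, ATF6 and EIF2AK3 sense misfolded protein in the endoplasmic reticulum (ER) and raise chaperones such as HSPA5.

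Some genes of the ATF4 and ER groups carry matches to short elements known for these groups. They are shown because these groups stood lower in the everolimus line and because 1 ATF4 target, ATF3, stood apart from the rest. The element TGATGNAA was searched on both strands of the RefSeq promoters (GRCh38.p14, 250 bases before to 50 after the start). It was in 6 of the 29 tested ATF4 targets with a promoter in the table (20.7%) and in 3.67% of all 27305 promoters. The ER stress element, CCAAT and CCACG with any 9 bases between them, was in 7 of 27 ER chaperone promoters (25.9%) and in 22 of all 27305 (0.0806%). The sterol element TCACNCCAC was in 1 of 20 cholesterol promoters (5%), SREBF2, and in 1.15% of all. A match is a run of letters, not a measured binding site. In the stretches below, on each gene's strand, capitals mark the match, and for CHAC1 they are its reverse complement. The stretch of ATF3 lies at chr1:212565191-212565248, plus strand, of CHAC1 at chr15:40953237-40953294, plus strand, of ASNS at chr7:97872444-97872501, minus strand, of HSPA5 at chr9:125241366-125241434, minus strand and of XBP1 at chr22:28800578-28800646, minus strand.
ATF3: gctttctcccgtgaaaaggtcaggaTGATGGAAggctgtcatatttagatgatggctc
CHAC1: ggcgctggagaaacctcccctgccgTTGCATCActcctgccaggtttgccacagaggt
ASNS: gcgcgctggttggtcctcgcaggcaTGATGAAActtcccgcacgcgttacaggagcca
HSPA5: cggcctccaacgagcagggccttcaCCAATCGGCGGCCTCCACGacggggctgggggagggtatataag
XBP1: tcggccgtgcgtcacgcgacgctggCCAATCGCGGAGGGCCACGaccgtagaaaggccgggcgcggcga

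The 4 libraries held 13141320 to 15556246 counts. The root mean square log2 difference over genes was 0.504 between the parental libraries and 0.688 between the everolimus libraries. Across groups it was 0.619, 0.633, 0.649 and 0.772. The everolimus pair thus differed more than all but the last of these pairs, and the parental pair less than any. The first principal component (48.7% of the variance) held everolimus 2 at 64.2 and the other 3 libraries at -47.3 to -4.85, and the second (35.3%) held everolimus 1 at -57.4 and the other 3 above 0. The everolimus libraries stood apart from each other as well as from the parental ones. Of 13 markers of this cell line 12 were high enough to test, with VIM at 302, 323, 351 and 585 CPM. Of 12 luminal markers 5 were too low to test, among them PGR, TFF1, TFF3 and AGR2. The 12 summed to 282 and 287 CPM in parental and 199 and 181 CPM in everolimus libraries. Of the 7 tested 6 were below 0 (median -0.68). The 10 leukocyte markers summed to 4.35 and 2.54 CPM in parental and 3.40 and 2.05 CPM in everolimus libraries, with CD3E without a count. The 10 fibroblast markers summed to 10.8 and 12.4 against 6.66 and 9.98 CPM, with LUM and PDPN without a count. A library without a count allows up to 3 counts, for counting error only. The 8 endothelial markers summed to 62.5 to 80.3 CPM, most of it ESAM, and CDH5 had at most 5 counts in a library. The receptor TIE1 of that list was at 0.764 and 0.704 CPM against 3.62 and 6.21 CPM, and DESeq2 called it higher.

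The fall of CASC19, a long non-coding RNA near MYC, was the 1 change to pass (0.00471% of the genes tested). It fell from 283 and 386 CPM in the parental libraries to 19.9 and 9.06 CPM in the everolimus libraries (log2 -4.53 ± 0.39, adjusted p = 0.0473 by edgeR's quasi-likelihood test). CASC19 lies on chromosome 8 at 127072694 to 127227541 (GRCh38, GENCODE 29), and the median of the 28 genes in its 10 Mb window was -0.02. Its neighbour MYC overlapped between the groups at 373, 369, 316 and 423 CPM, and CASC8 did at 9.47, 15.6, 4.56 and 18.2 CPM. PVT1 was at 198 and 193 CPM against 264 and 248 CPM. Of the 10 tested genes of this stretch of 8q24, 4 were lower in both everolimus libraries and 1, PVT1, was higher. The call was lost without parental 1 (adjusted p = 0.102 by edgeR's quasi-likelihood test), parental 2 (0.216), ridaforolimus 1 (0.0905) or ridaforolimus 2 (0.0935), while the log2 change stayed between -5.20 and -4.08. Without everolimus 1, edgeR's quasi-likelihood test called 3 genes: CASC19, S100P (log2 -5.19, adjusted p = 0.0304) and OAS3 (2.65, adjusted p = 0.0486). Without everolimus 2 it called CASC19 and F13A1 (3.76, adjusted p = 0.0274). The lone everolimus library of these fits was assumed to vary like the other groups.

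**Figure D1:**
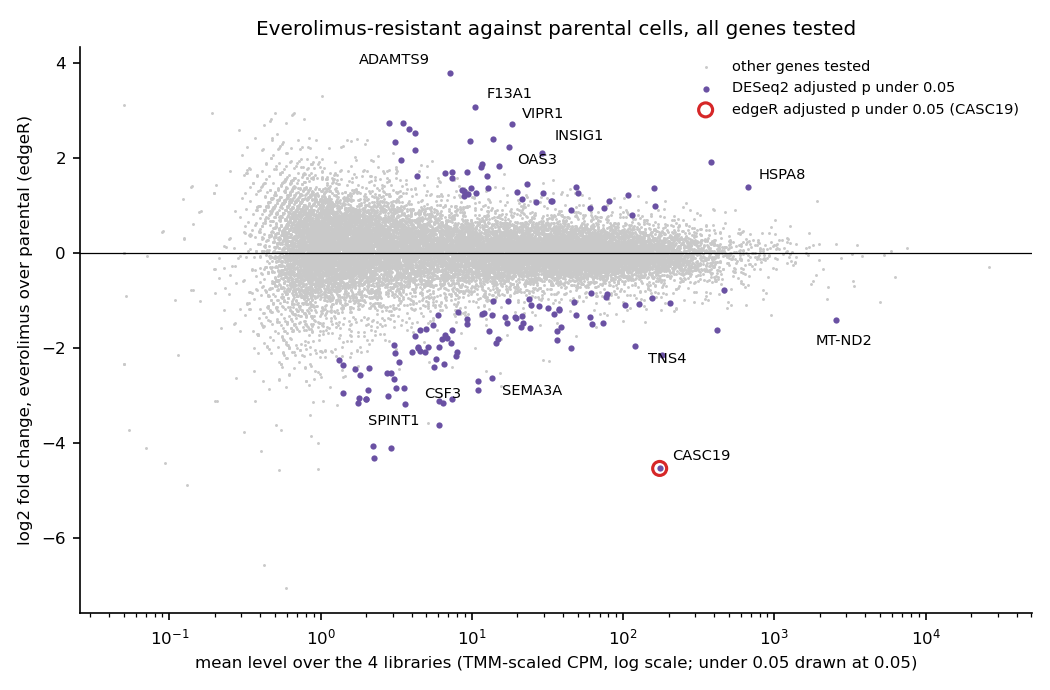
Log2 fold change of the 21223 genes tested (vertical axis) against the mean level over the 4 libraries (horizontal axis, TMM-scaled CPM on a log scale). The circled CASC19 at -4.53 is the 1 gene past edgeR's threshold, and the 150 genes past DESeq2's threshold lie on both sides of 0, 49 above and 101 below.

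DESeq2, run on the same genes, called 150 of the 17519 genes to which it gave an adjusted p (0.856%), 49 higher (0.28%) and 101 lower (0.577%). Their smallest log2 change was 0.77 in size, 127 were protein coding, and 78 had a mean of at least 10 CPM. For all 150 the groups did not overlap, which held for 41.1% of all genes tested, 20.6% higher and 20.5% lower. Their adjusted p by edgeR's quasi-likelihood test ran up to 0.437, so they are described by value. By edgeR 1866 genes (8.79%) had an unadjusted p under 0.05, 904 higher (4.26%) and 962 lower (4.53%).

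The 12 higher genes with the smallest p among well expressed genes with separate groups, with microRNA host genes and small structural RNAs set aside, included receptors, kinases and developmental regulators. VIPR1, the receptor of vasoactive intestinal peptide, stood at 3.13 and 6.62 CPM in the parental libraries and 30.6 and 33.2 CPM in the everolimus libraries (log2 2.7 ± 0.36). The everolimus libraries lay close to each other and far above the parental ones. TLR4, the lipopolysaccharide receptor, stood at 28.6 and 31.1 CPM against 67.1 and 76 CPM (log2 1.26 ± 0.19). GPR132, a G protein-coupled receptor, was at 16.7 and 17.7 CPM against 45.6 and 37.4 CPM. Both receptors were about as high in each everolimus library. Among the kinases, WEE1, which holds CDK1 inactive before mitosis, was at 80.1 and 98.2 CPM against 207 and 250.4 CPM (log2 1.36 ± 0.23). MAP3K14, the kinase of the non-canonical NF-kB route, was at 40.8 and 42.5 CPM against 87.1 and 72.4 CPM. Both kinases were higher in each everolimus library than in either parental one. GLI3, a transcription factor of hedgehog signalling, stood at 23.1 and 19.4 CPM against 43.1 and 47.1 CPM. LFNG, a glycosyltransferase that modifies Notch, stood at 19.9 and 23.2 CPM against 45.7 and 46 CPM, and the zinc finger factor ZIC2 at 18 and 16.3 CPM against 35.1 and 36.8 CPM. These 3 developmental genes had nearly equal libraries within each group. CABLES1, a CDK-binding protein, was at 11.7 and 13.2 CPM against 27 and 41 CPM and SERTAD4 at 4.51 and 5.71 CPM against 12.8 and 22.9 CPM. OAS3 is given with the interferon genes. The adjusted p of the 12 was 0.205 to 0.244 by edgeR's quasi-likelihood test, and DESeq2 called each of them. Among the genes set aside, MIR23AHG, the host transcript of a microRNA cluster, had a smaller p than LFNG, SERTAD4, CABLES1, GPR132, ZIC2 and MAP3K14. It stood at 199 and 119.7 CPM against 655 and 545 CPM (log2 1.91 ± 0.35), and DESeq2 called it higher.

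The 12 lower genes, chosen in the same way, included CASC19 and several secreted and cell-surface proteins. SEMA3A, a secreted guidance cue, was at 19.9 and 26.8 CPM against 4.27 and 3.24 CPM (log2 -2.64 ± 0.31). TNS4, a focal adhesion protein, stood at 194 and 188 CPM in the parental libraries and 52 and 46 CPM in the everolimus libraries (log2 -1.96 ± 0.25), with close values within each group. IL6R, the receptor subunit for interleukin 6, was at 91.3 and 54.3 CPM against 18.7 and 17.8 CPM (log2 -1.99 ± 0.31). The cytokine CSF3 (G-CSF) was at 16.3 and 22.5 CPM against 3.91 and 1.39 CPM (log2 -2.88 ± 0.46), lowest in everolimus 2. Other members act on actin and membranes. MISP, an actin-bundling protein, was at 65.4 and 48.5 CPM against 15.7 and 16.3 CPM (log2 -1.83 ± 0.30). PLEK2, a pleckstrin-family protein of the actin cytoskeleton, was at 43.5 and 28.9 CPM against 13.4 and 10.9 CPM, the vesicle SNARE VAMP8 at 35.8 and 28.5 CPM against 10.3 and 12.8 CPM and the membrane protein STOM at 107 and 110.4 CPM against 46.2 and 32.1 CPM. All 4 were lower in each everolimus library than in either parental one. The epidermal protein DMKN stood at 30.3 and 33 CPM against 10.1 and 11.2 CPM, the adaptor SH2D3A at 48.2 and 51.3 CPM against 17.6 and 23.3 CPM and C6orf132 at 25.4 and 22.5 CPM against 9.42 and 9.32 CPM. Their adjusted p was 0.205 by edgeR's quasi-likelihood test for each but CASC19, and DESeq2 called all 12. RN7SL3, a 7SL RNA gene set aside, had a smaller p than all of them but CASC19, SEMA3A and TNS4. It stood at 242 and 345 CPM against 53.3 and 79.1 CPM (log2 -2.15 ± 0.33), and DESeq2 called it lower. Its counts are uncertain because the 7SL genes are near-identical.

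**Figure D2:**
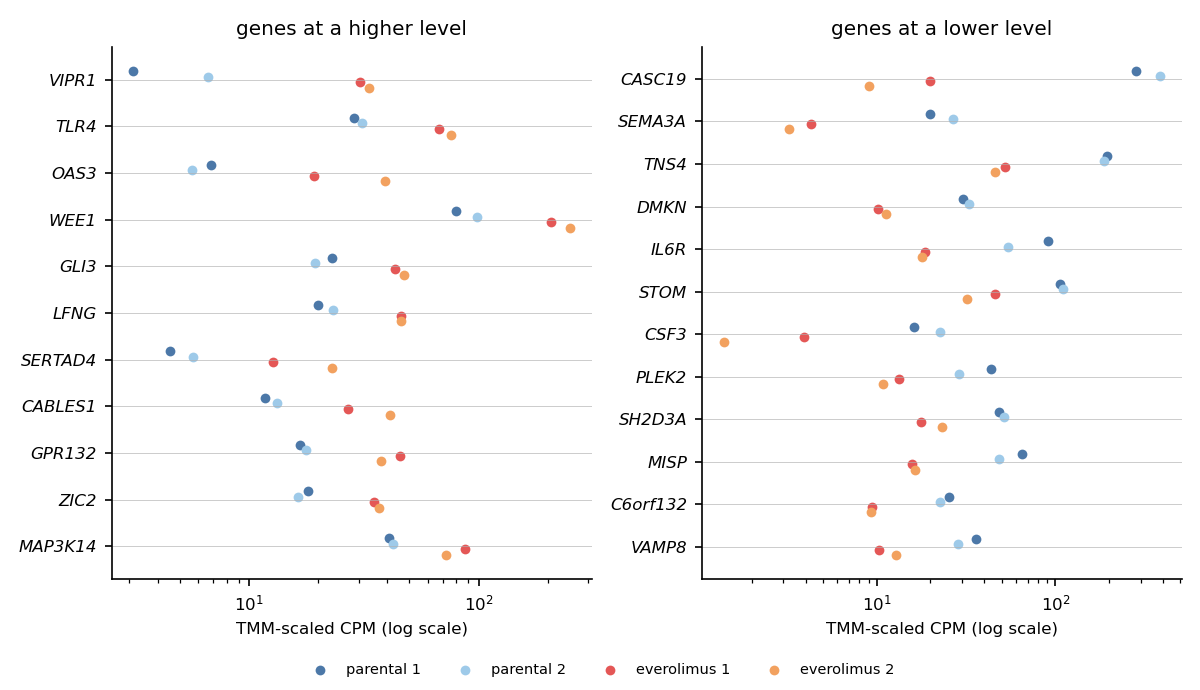
Level in each of the 4 libraries (horizontal axis, TMM-scaled CPM on a log scale) of the higher and lower genes with the smallest p that are described in the text. The parental and everolimus points do not overlap for any of them, which the choice required, and CASC19 runs from 283 and 386 CPM in parental to 19.9 and 9.06 CPM in everolimus libraries.

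Further genes were taken from the largest changes by DESeq2, leaving out those averaging under 10 CPM and the same genes set aside above. They are thus not its largest changes of all. Several less expressed genes changed more, such as ADAMTS9 (log2 3.79 by DESeq2) and PAEP (-4.38). F13A1, a subunit of the transglutaminase coagulation factor XIII, stood at 2.44 and 1.97 CPM against 30.1 and 7.27 CPM (log2 3.07 ± 0.62). Everolimus 1 was several-fold above everolimus 2 for it. PNPLA3, a lipid droplet enzyme, was at 3.36 and 6.76 CPM against 14.3 and 22.7 CPM. PPARGC1A, a coactivator of mitochondrial biogenesis, was at 6.04 and 7.25 CPM against 34.2 and 13.2 CPM, and its relative PPARGC1B at 12.3 and 14.4 CPM against 24.5 and 34.1 CPM. Both coactivators were higher in each everolimus library, PPARGC1A most in everolimus 1 and PPARGC1B in everolimus 2. The phosphatase PTPRH stood at 28.1 and 17.7 CPM against 6.59 and 5.75 CPM. SPANXB1 was at 21.2 and 17.2 CPM against 1.38 and 4.50 CPM, and its counts are uncertain because the family has near-identical copies.

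Epithelial genes stood lower, and alike in both everolimus libraries. These genes build tight junctions, desmosomes and the simple keratin network, and mesenchymal lines keep them low. Of 36 listed genes 30 could be tested. Of these 25 had an estimate below 0, against 47.6% of all genes, and 20 were lower in both everolimus libraries than in both parental ones (median -0.60, against 0.02 for all genes). On the lower side 15 had an unadjusted p under 0.05 and on the higher side 1, and none passed edgeR's threshold. DESeq2 called 6 of them lower: CDS1, SPINT1, CLDN7, EPCAM, CLDN1 and ESRP1. SPINT1, which inhibits the protease matriptase, stood at 12.8 and 9.58 CPM in the parental libraries and 1.23 and 0.595 CPM in the everolimus libraries (log2 -3.61 ± 0.56). The adhesion molecule EPCAM was at 4.43 and 5.35 CPM against 1.01 and 1.52 CPM and the lipid enzyme CDS1 at 7.49 and 8.80 CPM against 2.03 and 2.12 CPM. All 3 were several-fold lower in each everolimus library. The claudins of tight junctions shared this, CLDN7 at 15.1 and 12.5 CPM against 5.22 and 4.56 CPM (log2 -1.50 ± 0.28) and CLDN1 at 5.42 and 3.94 CPM against 1.09 and 0.529 CPM (log2 -2.53 ± 0.52). ESRP1, the splicing factor of the epithelial programme, was at 9.78 and 7.40 CPM against 3.26 and 3.64 CPM. The simple keratins were less uniform: KRT19 stood at 75.6 and 69.2 CPM against 23 and 49.2 CPM, KRT18 at 219 and 192 CPM against 163 and 187 CPM, and KRT8 overlapped at 391, 345, 332 and 428 CPM. CDH1, the E-cadherin gene, was too low to test, at most 0.229 CPM. Without everolimus 1 the median was -0.77 and without everolimus 2 it was -0.60, with 25 of 30 below 0 in each.

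Of 8 tested basal keratins and partners 7 were below 0 (median -0.74). KRT81, a hair keratin, stood at 694 and 716 CPM against 381 and 284 CPM (log2 -1.09 ± 0.31). KRT6A, whose near-identical family members make its counts uncertain, was at 2.22 and 1.27 CPM against 0.290 and 0.264 CPM. ITGB4, the hemidesmosome integrin subunit, was at 156 and 97.7 CPM against 70.5 and 34 CPM, and the fibronectin receptor subunit ITGA5 at 184 and 136 CPM against 101 and 64.6 CPM. For both integrins parental 1 was the highest library and everolimus 2 the lowest. With genes under 5 CPM left out, the median of the 6 basal genes remaining was -0.26. The mesenchymal genes had no common direction, 10 of 17 above 0 against 52.3% of all genes. Fibronectin, FN1, was at 1363 and 1081 CPM against 2827 and 2346 CPM (log2 1.08 ± 0.56). The EMT factor ZEB1 was at 74.2 and 61.8 CPM against 93.8 and 87.3 CPM and the homeobox factor PRRX1 at 0.306 and 0.775 CPM against 1.16 and 2.38 CPM. FN1, ZEB1 and VIM were higher in both everolimus libraries, and none passed (adjusted p 0.623, 0.631 and 0.596 by edgeR's quasi-likelihood test). The chromatin protein HMGA2 stood at 179 and 159 CPM against 342 and 321 CPM, and the matrix protein TNC at 144 and 66.9 CPM against 61.5 and 26.6 CPM.

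Mitochondrially encoded mRNAs were lower in both everolimus libraries by about the same amount. They encode subunits of respiratory complexes I, III and IV and of ATP synthase, cut from long transcripts of the mitochondrial genome. All 13 had estimates below 0 (median -0.70), against 47.6% of all genes. Of these, 12 were lower in both everolimus libraries, against 20.5%, and 7 had an unadjusted p under 0.05 on the lower side, against 4.53%. Together the 13 summed to 45054 and 30646 CPM in parental and 22531 and 22010 CPM in everolimus libraries. The complex I subunit MT-ND2 was at 4529 and 2899.5 CPM in the parental libraries and 1420.2 and 1384 CPM in the everolimus libraries (log2 -1.41 ± 0.26), and DESeq2 called it lower. MT-ND4 stood at 7928 and 5536 CPM against 3517 and 3051 CPM and MT-ND1 at 3516 and 2409 CPM against 1721 and 1301 CPM. MT-CO1, of complex IV, stood at 8292 and 6431 CPM against 5430.3 and 4938 CPM (log2 -0.51 ± 0.25), and MT-ATP6, of ATP synthase, at 2456 and 1939.8 CPM against 1397 and 1798 CPM (log2 -0.46 ± 0.23). Parental 1 was the highest library for all 13. Without parental 1 the median was -0.32 and without parental 2 it was -1.02, with 13 of 13 below 0 in each. The 76 nuclear genes of oxidative phosphorylation had 40 below 0 (median -0.03). The mitochondrial polymerase POLRMT stood at 143 and 131 CPM against 103 and 127 CPM (log2 -0.25 ± 0.20), and TFAM, which packs mitochondrial DNA, overlapped at 118, 152, 131 and 159 CPM.

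**Figure D3:**
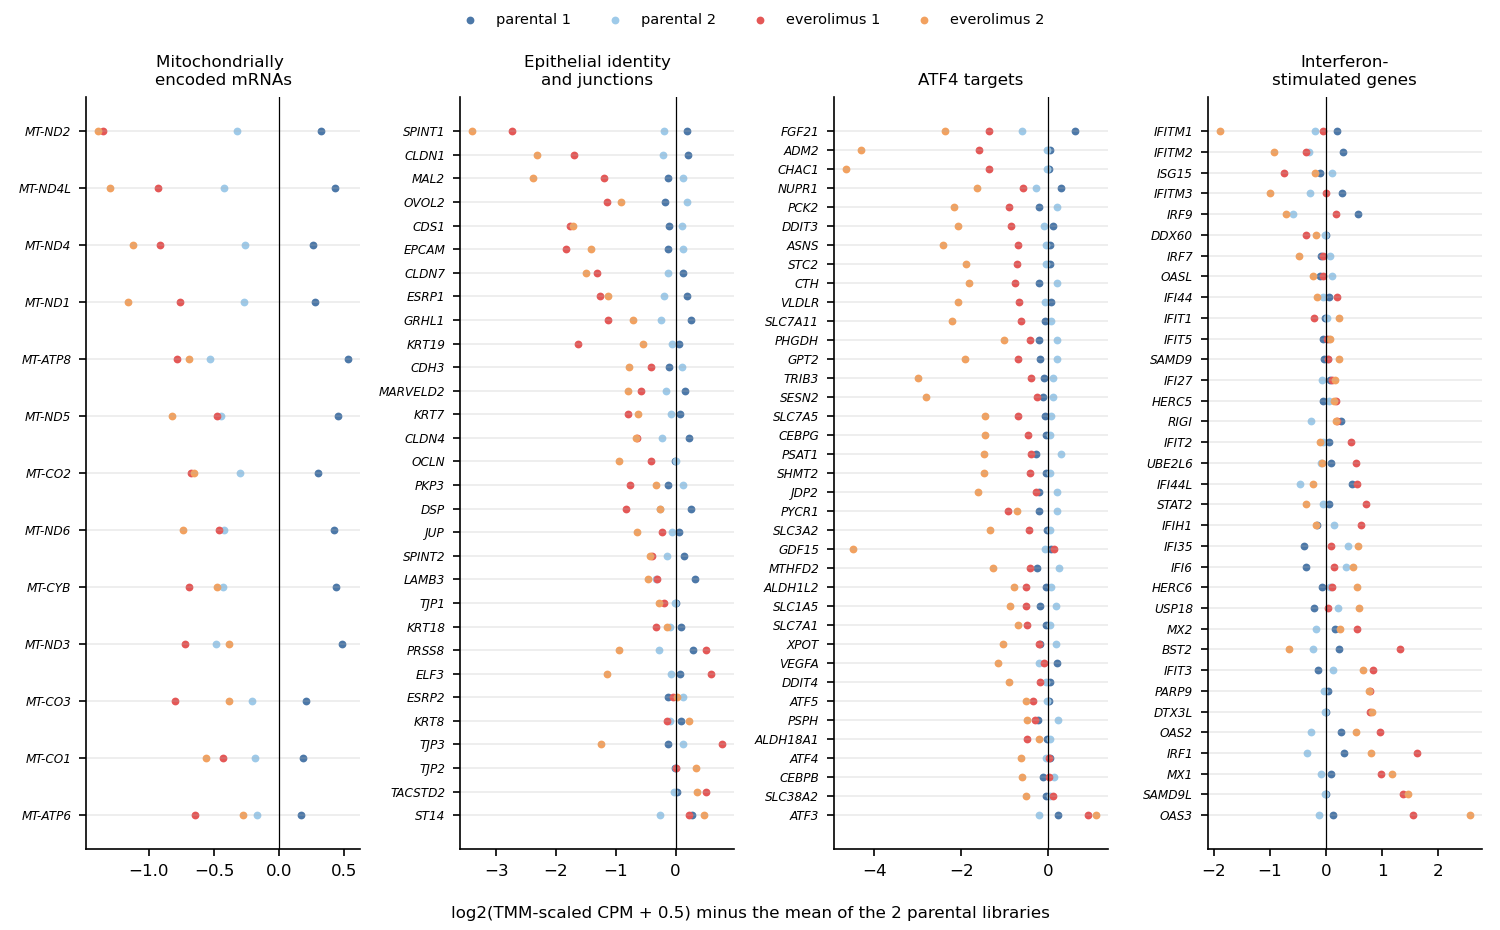
Tested genes of 4 groups in each library, as log2(TMM-scaled CPM + 0.5) minus the mean of the 2 parental libraries, ordered by fold change. The 13 mitochondrial mRNAs and most epithelial genes lie to the left in both everolimus libraries, most ATF4 targets lie further left in everolimus 2 than in everolimus 1, and OAS3 is at the right end of the interferon-stimulated genes.

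Targets of ATF4, which import and make amino acids and charge tRNAs, stood lower, with a wide gap between the everolimus libraries. Of 37 tested targets 36 had estimates below 0 (median -0.86), against 47.6% of all genes. In both everolimus libraries 31 were lower than in both parental ones, against 20.5% of all genes. Relative to the parental mean the median of the targets was -0.46 in everolimus 1 and -1.46 in everolimus 2. None passed by edgeR or was called by DESeq2, and 7 had an unadjusted p under 0.05 on the lower side by edgeR. CHAC1, which degrades glutathione and whose element is printed above, stood at 54.5 and 52.4 CPM in the parental libraries and 20.4 and 1.65 CPM in the everolimus libraries (log2 -2.28 ± 1.10). ASNS, asparagine synthetase, was at 18.4 and 17.3 CPM against 10.9 and 2.91 CPM, and the peptide hormone ADM2 at 26.9 and 25.6 CPM against 8.33 and 0.859 CPM. In these 3 everolimus 1 was below the parental pair and everolimus 2 far lower still. The stress factor DDIT3 was at 25.7 and 22.3 CPM against 13 and 5.29 CPM, the mitochondrial enzyme PCK2 at 124 and 167 CPM against 76.9 and 31.5 CPM and the proline enzyme PYCR1 at 40.4 and 53.6 CPM against 24.5 and 28.2 CPM. The pseudokinase TRIB3 was at 181 and 210.0 CPM against 148 and 24.1 CPM, with most of the difference in everolimus 2. GDF15, a stress cytokine chosen here after its values were seen, was low in everolimus 2 alone, at 187, 168, 195 and 7.47 CPM. The mRNA of ATF4 itself overlapped at 399, 371, 387 and 249 CPM. The exception was ATF3, a stress factor whose promoter carries the same element, at 59.6 and 44 CPM against 97.9 and 109.7 CPM (log2 1.00 ± 0.32). It was higher in both everolimus libraries, as was the immediate-early factor NR4A2 at 43.9 and 20.8 CPM against 67.7 and 83.2 CPM. Without everolimus 2 the median of the targets was -0.50 with 32 of 37 below 0, and without everolimus 1 it was -1.48 with 36.

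The aminoacyl-tRNA synthetases, which attach amino acids to tRNAs, had 18 of 23 below 0 and 16 lower in both everolimus libraries (median -0.38). Of all genes 47.6% were below 0 and 20.5% were lower in both. AARS1, for alanine, stood at 484 and 419 CPM against 303 and 132 CPM. SARS1, for serine, stood at 974.8 and 806 CPM against 609 and 226 CPM and WARS1, for tryptophan, at 416 and 373 CPM against 269 and 119 CPM. For all 3 everolimus 2 was less than everolimus 1, and both were below the parental pair. NARS1, for asparagine, was at 121 and 126 CPM against 84.3 and 72.4 CPM (log2 -0.66 ± 0.24) with little gap between its everolimus libraries. RARS1, for arginine, chosen after its values were seen, was higher in both at 90.6 and 108 CPM against 111 and 157 CPM. The amino-acid transporters had 9 of 17 above 0 (median 0.01), with the glutamine carrier SLC38A1 at 1134 and 1144 CPM against 815 and 448 CPM and the glutamate carrier SLC1A3 at 12.1 and 18.8 CPM against 42.6 and 23.1 CPM.

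All 28 tested genes of ER folding and the unfolded protein response had estimates below 0 (median -0.31), against 47.6% of all genes. In both everolimus libraries 11 were lower, against 20.5% of all genes. The sensor ERN1 (IRE1) stood at 126 and 70.6 CPM in the parental libraries and 49.5 and 17.5 CPM in the everolimus libraries (log2 -1.55 ± 0.46). HSPA5 (BiP), the main chaperone of the ER lumen, was at 1305 and 928 CPM against 701 and 444 CPM (log2 -0.96 ± 0.29). In both, parental 1 was the highest library and everolimus 2 the lowest. The co-chaperone DNAJB11 was at 61.6 and 52.8 CPM against 41 and 39.5 CPM and the translocon subunit SEC61B at 61.4 and 56.8 CPM against 42.7 and 44.7 CPM. Members that carry the ER stress element beside HSPA5 were not alike. XBP1 was at 136 and 147 CPM against 122 and 55.1 CPM, while the chaperones HSP90B1, at 693, 550.2, 632 and 503 CPM, and CALR, at 580.2, 517, 379 and 621 CPM, overlapped. Scaling by total count put 4 of the 28 genes above 0 (median -0.24). Leaving out everolimus 2 put 9 above 0 (median -0.16), and leaving out parental 1 put 4 above 0 (median -0.16).

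Interferon-stimulated genes, the antiviral effectors switched on by interferon, differed among themselves. Of 35 tested 26 were above 0 (median 0.27), against 52.3% of all genes. In both everolimus libraries 13 were higher and 4 lower, against 20.6% and 20.5% of all genes. An unadjusted p under 0.05 was found for 7, all higher, against 4.26% of all genes on the higher side. None passed edgeR's threshold. DESeq2 called OAS3 and SAMD9L higher, against 0.28% of the genes to which it gave an adjusted p. OAS3, which makes oligoadenylates on viral RNA, stood at 6.80 and 5.63 CPM in the parental libraries and 19.2 and 38.9 CPM in the everolimus libraries (log2 2.23 ± 0.35). SAMD9L, an antiviral translation inhibitor, stood at 2.14 and 2.11 CPM against 6.30 and 6.74 CPM (log2 1.61 ± 0.31). The factor IRF1 was at 34.8 and 21.8 CPM against 86.1 and 48.8 CPM and the antiviral GTPase MX1 at 1.99 and 1.69 CPM against 4.13 and 4.76 CPM. The partner proteins DTX3L, at 26.9 and 26.6 CPM against 46.7 and 47.6 CPM, and PARP9, at 11.7 and 11.1 CPM against 20.0 and 19.6 CPM, had nearly equal libraries within each group. The ubiquitin-like ISG15 was lower in both at 33.5 and 38.9 CPM against 21.2 and 31.3 CPM, and IFIT1 overlapped at 14.7, 15, 12.8 and 17.6 CPM. Without everolimus 1 the median was 0.16 with 19 of 35 above 0, and without everolimus 2 it was 0.18 with 26.

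Genes of MHC class I peptide loading had 12 of 17 above 0 (median 0.23). In both everolimus libraries 7 were higher and 2 lower, against 20.6% and 20.5% of all genes. NLRC5, the transactivator of this pathway, was at 22.5 and 23.7 CPM against 73 and 39.3 CPM, and the peptide trimmer ERAP2 at 9.47 and 11 CPM against 25.3 and 22.3 CPM. The immunoproteasome subunit PSMB8 stood at 4.66 and 5.85 CPM against 12 and 8.66 CPM and PSMB9 at 1.45 and 1.06 CPM against 4.56 and 3.50 CPM. In NLRC5, PSMB8 and PSMB9 everolimus 1 was the highest library. The heavy chain HLA-B overlapped at 163, 109, 238 and 80.0 CPM, and near-identical genes can share its reads. Relative to the parental mean the group's median was 0.57 in everolimus 1 and within 0.01 of 0 in everolimus 2.

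TGF-beta signalling, which the series title names, acts through SMAD2 and SMAD3 and raises its own inhibitors. Of 12 tested inhibitors 9 were above 0 (median 0.14). In both everolimus libraries 5 were higher and 2 lower, against 20.6% and 20.5% of all genes. SMAD7, which blocks the receptor, stood at 7.41 and 6.90 CPM in the parental libraries and 23.1 and 13.9 CPM in the everolimus libraries (log2 1.37 ± 0.29, adjusted p = 0.298 by edgeR's quasi-likelihood test and 0.0155 by DESeq2). SMAD6, its counterpart for BMP, was at 7.11 and 8.87 CPM against 21.8 and 13.4 CPM. PMEPA1, which sequesters SMAD2 and SMAD3, was at 23.2 and 13.3 CPM against 29.8 and 47.1 CPM (log2 1.08 ± 0.32, 95% interval 0.35 to 1.80). It did not pass, with an adjusted p of 0.444 by edgeR's quasi-likelihood test and 0.172 by DESeq2. Everolimus 1 was highest for SMAD6 and SMAD7, and everolimus 2 for PMEPA1. Among ligands TGFB2 was at 81.1 and 141 CPM against 215 and 177 CPM and the activin subunit INHBB at 8.71 and 12.7 CPM against 1.23 and 4.89 CPM. The activin trap FST was at 6.57 and 9.09 CPM against 14.1 and 35.4 CPM. In the BMP arm the ligand BMP4 was at 11.8 and 15.9 CPM against 22.6 and 29.7 CPM and BMP6 at 3.36 and 3.73 CPM against 0.435 and 0.859 CPM, which DESeq2 called lower. The target genes of SMAD2 and SMAD3 had 11 of 22 above 0 (median -0.03). TGFBI was at 44.7 and 26 CPM against 64.2 and 56.6 CPM and COL4A1 at 220.0 and 196 CPM against 150.2 and 135 CPM.

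The drug's own target and partners showed small differences that the spread could not resolve. MTOR stood at 148, 142, 127 and 167 CPM, with a 95% interval of -0.50 to 0.55 for its log2 change. FKBP1A, the gene of FKBP12, stood at 209, 183, 177 and 216 CPM, with an interval of -0.45 to 0.46. Of the 13 tested FK506-binding proteins 2 were lower in both everolimus libraries, against 20.5% of all genes. None had an unadjusted p under 0.05, against 8.79% of all genes, a share too small to set 13 genes apart. Of 11 tested mTORC1 and mTORC2 genes 2 were higher and 2 lower in both, near the shares of all genes (20.6% and 20.5%). PRR5L, an mTORC2-associated protein, was at 9.63 and 7.96 CPM against 15.4 and 17.3 CPM (log2 0.89 ± 0.24). Among 17 translation effectors of mTORC1, 8 were higher and 4 lower in both everolimus libraries. The S6 kinase RPS6KB1 was at 80.1 and 74 CPM against 59.8 and 52.8 CPM and the repressor EIF4EBP1 (4E-BP1) at 162 and 186 CPM against 100.3 and 67.6 CPM. The kinase MKNK2, which acts on EIF4E, was at 307 and 259.8 CPM against 218 and 116 CPM, and the helicase cofactor EIF4B at 308 and 357 CPM against 506 and 421 CPM. The first 3 were lowest in everolimus 2, whereas EIF4B was highest in everolimus 1.

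Upstream, the PI3K regulatory subunit PIK3R1 stood at 19.5 and 18.9 CPM against 34.6 and 32.2 CPM and PIK3R3 at 5.58 and 5.21 CPM against 8.40 and 11.6 CPM. The catalytic subunit PIK3CD was at 15.7 and 17.6 CPM against 11.2 and 11.3 CPM, and PIK3CA overlapped at 55.7, 67.9, 64.5 and 58.1 CPM. The 11 PI3K genes tested had 7 above 0 and a median of 0.01. The kinase AKT1 overlapped at 149.8, 173, 123 and 192 CPM. IRS1, the insulin receptor adaptor, was at 151 and 179 CPM against 224 and 309.9 CPM, and GRB10, an adaptor that damps insulin signalling, at 91.4 and 85 CPM against 63.6 and 29.9 CPM. IRS1 was highest and GRB10 lowest in everolimus 2. The receptor MET was at 173 and 179.7 CPM against 128 and 127 CPM. None of the 13 tested ABC drug transporters had an unadjusted p under 0.05, against 8.79% of all genes, a share too small to set 13 genes apart. ABCB1 had no count in the 4 libraries.

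Other signalling and metabolic genes were described by value. DUSP8, a phosphatase of stress kinases, was at 4.66 and 2.47 CPM against 0.507 and 0.331 CPM, and DESeq2 called it lower. DUSP10, of the same family, was at 11.8 and 6.13 CPM against 28.2 and 18.2 CPM and the MAPK-induced IER3 at 194 and 155 CPM against 104 and 65 CPM. The 22 MAPK feedback genes thus differed in direction, with 12 above 0. HK2, a hexokinase of the first step of glycolysis, stood at 98.1 and 104 CPM against 50.4 and 60.4 CPM (log2 -0.87 ± 0.19), and DESeq2 called it lower. HK1 was at 349 and 263 CPM against 209.8 and 207 CPM, and 15 of 23 glycolysis genes were below 0 (median -0.14). The cell cycle inhibitor CDKN1A was at 142 and 77.6 CPM against 54.1 and 51.3 CPM and CDKN2C at 19.7 and 31.2 CPM against 33.7 and 84.7 CPM. CDKN1A was lowest in the everolimus libraries and highest in parental 1. Of the lysosome and autophagy genes 25 of 50 were above 0, with the factor TFEB at 13.2 and 12.1 CPM against 5.87 and 4.89 CPM and the cholesterol carrier NPC2 at 69.2 and 67.3 CPM against 104 and 107 CPM. The secreted metalloprotease ADAMTS9 was at 1.45 and 0.493 CPM against 13.2 and 13.6 CPM (log2 3.79 ± 0.67), ADAMTS6 at 5.04 and 7.40 CPM against 13.5 and 24.5 CPM and ADAMTS15 at 24.3 and 26.4 CPM against 61.1 and 67.4 CPM. All 3 were higher in both everolimus libraries, and DESeq2 called ADAMTS9 and ADAMTS6. The receptor NOTCH3, which DESeq2 called lower, stood at 11.5 and 7.96 CPM against 3.04 and 1.92 CPM, its ligand JAG1 at 199 and 151 CPM against 120.2 and 101 CPM and the Notch target HES1 at 88.5 and 173 CPM against 215 and 231 CPM. S100P, a calcium-binding protein of epithelial tumours, was at 31.9 and 22.2 CPM against 7.10 and 0.727 CPM, far lower in everolimus 2 than in everolimus 1.

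Several gene groups lay on opposite sides of the parental level in the 2 everolimus libraries, so that their average describes neither. Genes of cholesterol synthesis and uptake, which SREBP2 drives, had a median of -0.15 in everolimus 1 and 1.01 in everolimus 2 relative to the parental mean. Of 27 genes 25 were higher in everolimus 2 than in everolimus 1. FDFT1, squalene synthase, was at 56.8, 72.4, 62.6 and 190.4 CPM, with everolimus 2 far above the other 3 libraries. INSIG1, which retains the SREBP machinery in the ER, was higher in both at 7.87 and 13.9 CPM against 18.2 and 76 CPM (log2 2.11 ± 0.59). HMGCS1, an early enzyme of the pathway, was at 17.5 and 17.7 CPM against 23.5 and 78.5 CPM. The fatty acid synthase FASN, at 293 and 381 CPM against 388 and 828 CPM, and the desaturase FADS2, at 99.7 and 143 CPM against 138 and 379 CPM, were also highest in everolimus 2. Without everolimus 2 the median of the cholesterol genes was -0.18 with 9 of 27 above 0, and without everolimus 1 it was 1.00 with 25.

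Replication and mitosis genes split alike. All 30 genes of G1/S and DNA replication were higher in everolimus 2 than in everolimus 1, with medians of -0.56 in everolimus 1 and 0.84 in everolimus 2 against the parental mean. UHRF1, which maintains DNA methylation at forks, was at 109.9, 158, 73.5 and 308 CPM, and the helicase subunit MCM4 at 71.7, 101, 70.4 and 221 CPM. The parental libraries of both lay between the 2 everolimus libraries. All 35 G2/M genes shared this order (medians -0.39 and 0.45), with the mitotic activator CDC20 at 92.7, 133, 83.3 and 266 CPM. The parental libraries also differed, with a median of -0.51 for parental 1 minus parental 2 over the G1/S genes. Cytosolic heat-shock chaperones had medians of -0.01 and 0.48, with HSP90AA1 at 665, 879, 645 and 1838 CPM. HSPA8, the constitutive Hsp70, was higher in both at 407 and 339 CPM against 615 and 1336 CPM (log2 1.39 ± 0.36), and DESeq2 called it.

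NF-kB targets and cytokines ran the other way, with medians of 0.37 in everolimus 1 and -1.0 in everolimus 2, and 3 of 28 were higher in everolimus 2 than in everolimus 1. The chemokine CXCL8 stood at 24.5, 26.7, 81.9 and 7.60 CPM, CXCL1 at 12.5, 12.3, 62.2 and 5.68 CPM and the feedback inhibitor TNFAIP3 at 28.1, 26.9, 94 and 16.9 CPM. In each, everolimus 1 was above and everolimus 2 below both parental libraries. CSF3 and the iron-binding LCN2, at 9.70 and 7.54 CPM against 3.19 and 0.331 CPM, were lower in both. Hypoxia-inducible genes had medians of 0.12 and -0.57. The carbonic anhydrase CA12, at 9.24 and 6.06 CPM against 1.96 and 2.18 CPM, and EPAS1 (HIF-2α), at 289.9 and 204 CPM against 153 and 61.1 CPM, were lower in both. The gap between the everolimus libraries in replication genes came with the gaps in sterol, ATF4 and NF-kB genes, and its part in them was not tested.

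**Figure D4:**
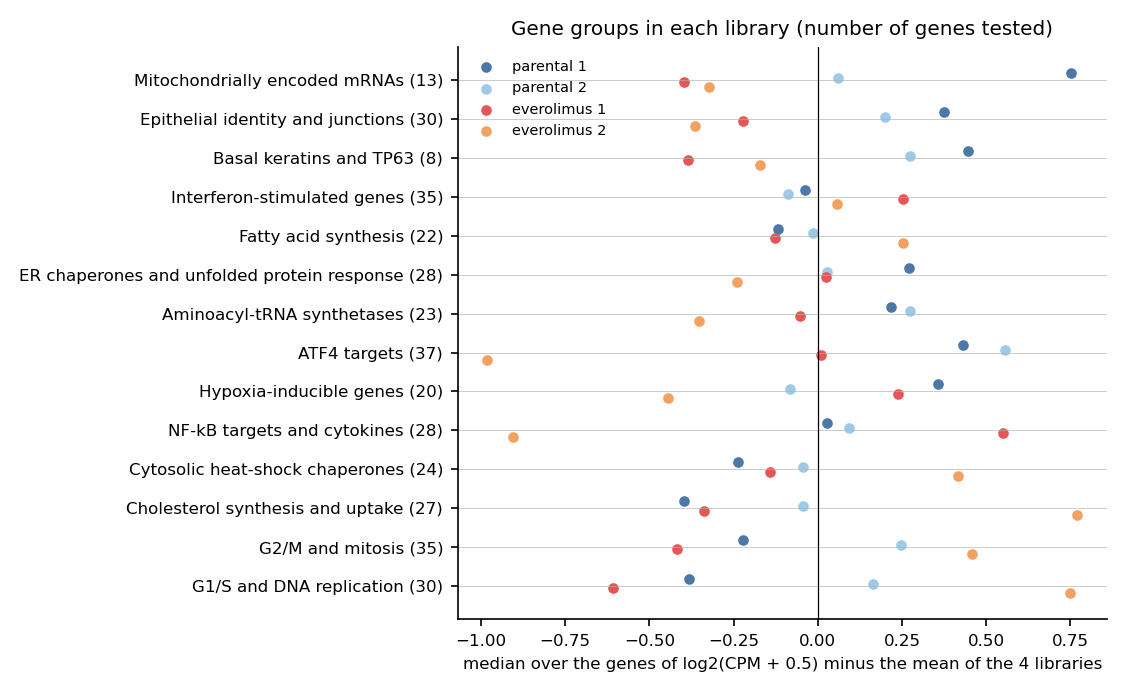
Median level of 14 gene groups in each library (horizontal axis, log2(CPM + 0.5) minus the mean of the 4 libraries). Mitochondrial, epithelial and basal keratin genes keep both everolimus libraries below both parental ones, while for replication genes the everolimus libraries lie at opposite ends, a median of 1.36 apart.

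Fold changes were also laid out along the chromosomes, over 11864 genes with a mean of at least 5 CPM. Of the 230 windows of 10 Mb with at least 20 genes, 159 had a median within 0.1 of 0, and in 5 at least 90% of the genes lay on 1 side. On chromosome 7 from 150 to 160 Mb all 39 genes were above 0 (median 0.28), and 20 of them were higher in both everolimus libraries. Chromosome 11 from 90 to 100 Mb had 22 of 23 above 0 (median 0.39), and chromosome 4 from 180 to 190 Mb had 21 of 22 (0.38). Chromosome 5 from 90 to 100 Mb had 28 of 29 above 0 (0.24). Chromosome 6 from 80 to 90 Mb had 30 of 33 below 0 (-0.25). In each of the 5 the medians of the everolimus libraries lay on 1 side of both parental medians. The choice of the windows by the same fold changes made this likely. The gap was narrowest for everolimus 1 on chromosome 4, at 0.03 against -0.19 and -0.11 relative to the mean of the 4 libraries.

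Chromosome 5 as a whole leaned higher. Of its 553 genes 72.7% were above 0 (median 0.18), and each of its 18 windows with at least 10 genes had a median above 0, from 0.07 to 0.34. Of its 925 tested genes 10.1% had an unadjusted p under 0.05 on the higher side, against 4.26% of all genes. HMGCS1, ERAP2, FST, TGFBI and PIK3R1, described above, lie on it. Their log2 changes exceeded the medians of their own windows by 0.63 to 1.48. On chromosome 9, 34.9% of 484 genes were above 0, and on chromosome 19, 38.0% of 821.

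The ends of chromosomes 11 and 6 were looked at after their values were seen. Chromosome 11 from 90 Mb on had 126 of 155 genes above 0 (median 0.29). HSPA8 and ADAMTS15 lie there, and HSPA8 at 1.39 was 1.03 above the median of its window, 0.36. Chromosome 6 from 160 Mb on had 18 of 20 genes below 0 (median -0.58), and 17 of the 20 were lower in both everolimus libraries. DESeq2 called 3 of these lower. RPS6KA2, a kinase downstream of ERK, was at 89.5 and 95.1 CPM against 40.5 and 25.1 CPM. C6orf120 was at 52.5 and 51.3 CPM against 24.6 and 21.5 CPM and FAM120B at 83.7 and 73.1 CPM against 44.3 and 43.1 CPM. Both groups of all 3 genes were far apart, and their everolimus libraries lay close together for C6orf120 and FAM120B. DNA copy number was not analysed here.

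**Figure D5:**
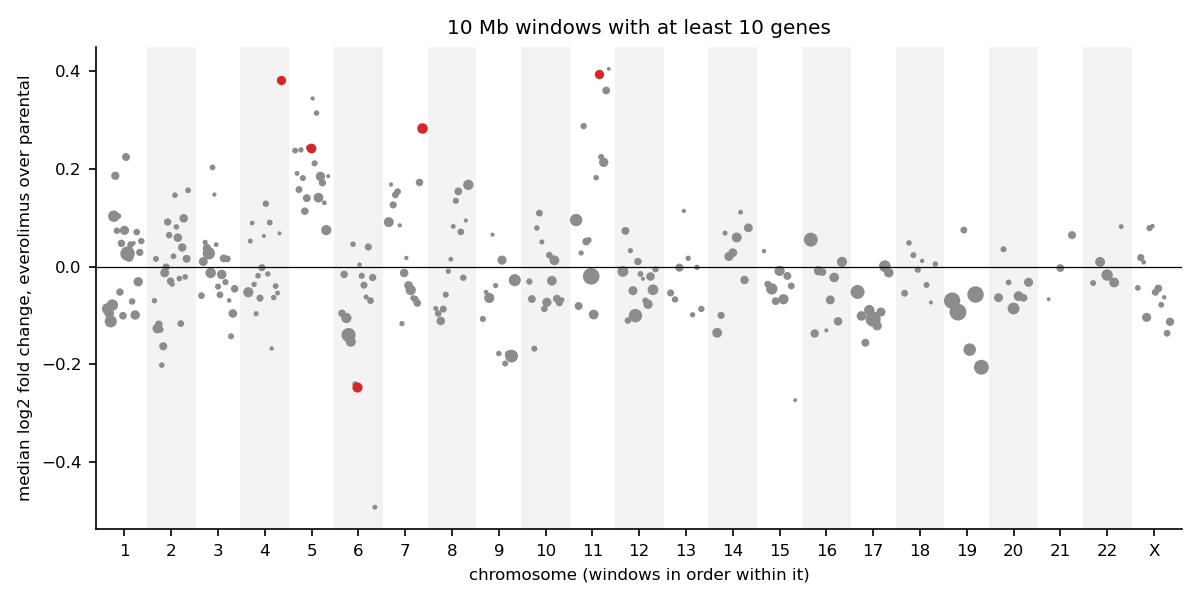
Median log2 fold change of each 10 Mb window with at least 10 genes (vertical axis), placed in order within each chromosome (horizontal axis), with the point's area growing with its number of genes. The 5 windows with at least 20 genes and at least 90% on 1 side of 0 are marked, and all 18 windows of chromosome 5 lie above 0.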

How the data were processed

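The authors deposited raw counts per gene, 1 column per library. Reads were trimmed with Trim Galore 0.6.6, aligned with STAR 2.7.9a to GRCh38 and counted with HTSeq 0.13.5, per the submitters' processing notes, which also name DESeq2. Neither annotation release nor strand setting is given in the sources used here.

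Libraries were grouped by their titles. Genes with enough counts by edgeR's filter (21223) were scaled by TMM and tested with edgeR 4.0.16 in R 4.3.3: a quasi-likelihood fit of the 3 groups with 6 libraries, leaving 3 residual degrees of freedom, with Benjamini-Hochberg adjustment over all genes tested. A gene passed at an adjusted p under 0.05. Alternatives were DESeq2 1.42.0, limma-voom (limma 3.58.1), other scaling, filters and sample sets, a replicate block, and leaving out each library. Groups did not overlap where both libraries of one lay above both of the other.

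Named were the genes that passed, members of the TGF-beta, PI3K, AKT, mTOR and FK506-binding lists, the 12 higher and 12 lower genes of smallest p and the 8 and 8 largest DESeq2 changes (mean of at least 10 CPM, separate groups, no pseudogene, clone, LINC, antisense, microRNA host or small structural RNA genes), and per list up to 6 members of unadjusted p under 0.05 (at least 1 CPM) and up to 3 leading members. Some of these genes are not reported here, in text or figures. The members and lists were chosen with earlier results of these data known. Gene positions are from GENCODE 29, and promoters from RefSeq. Intervals are 95%.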

Additional observations from a re-analysis of the deposited data

How the results depend on the processing

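The number of genes called depended on the processing. It was 1 by edgeR's quasi-likelihood test, 1 by limma-voom and 1 with DESeq2's size factors in edgeR. It was 150 by DESeq2 (49 higher, 101 lower) and 493 in edgeR with no filter on low counts (173 higher, 320 lower, of 40833 genes). It was 0 with the 4 compared libraries alone, 0 with scaling by total count and 0 with genes under 5 CPM left out, where 1989, 1875 and 1186 genes had an unadjusted p under 0.05. Leaving out 1 library gave 0 to 3 calls, with 728 to 2557 genes at an unadjusted p under 0.05. The log2 change of CASC19 was -4.54 (adjusted p = 0.138 by edgeR's quasi-likelihood test) in the 4 libraries alone, -4.46 (0.0677) with total-count scaling and -4.49 (0.199) with genes under 5 CPM left out, and -5.20 to -4.08 without 1 library. The log2 change of PMEPA1 was 1.07 with no filter (adjusted p = 0.00801 by edgeR's quasi-likelihood test) and 0.70 to 1.53 without 1 library. In the main fit its adjusted p was 0.444 by edgeR's quasi-likelihood test. The cause of these differences was not tested. Of the 166 genes named for a call, a small p or the series title, none changed sign in the 14 alternatives. Of these, 15 fell under the 5 CPM filter and were not tested there. The choice of the 166 by p or by separate groups made a change of sign unlikely. Members named by value alone were not among them. Beside CASC19, DESeq2 called 47 more of the 166 and edgeR with no filter 103 more. Of the 58 gene lists, 19 kept the sign of their median in every fit that left out 1 library, and sterol, replication, mitosis, NF-kB and heat-shock genes were among those that did not.

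With the replicate number as a block, edgeR called 0 genes (1644 at an unadjusted p under 0.05), and CASC19 was at log2 -4.60 (adjusted p = 0.182 by edgeR's quasi-likelihood test). Deviations of same-numbered libraries correlated at 0.33 between parental and everolimus. The value was -0.17 between parental and ridaforolimus and -0.19 between everolimus and ridaforolimus. Because many genes vary together within a library, these correlations cannot settle whether the numbers pair the libraries.

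With 2 libraries a group and 3 residual degrees of freedom, the 95% interval of a well expressed gene such as MTOR spanned about 1 log2 unit, which limits what these data resolve. Genes under 1 CPM rest on few counts.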
